A study of Homo sapiens with 9 samples.

Results

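The HOXC cluster is a run of homeobox genes on the long arm of human chromosome 12, and it was followed here across the 3 treatment groups of an RNA sequencing study in HEK293T cells. The genes were taken by name, which gave 10 rows of the 58735 in the count files for 9 names: HOXC4, HOXC5, HOXC6, HOXC8, HOXC9, HOXC10, HOXC11, HOXC12 and HOXC13. HOXC5 has 2 rows, a protein-coding gene (ENSG00000172789) and a read-through transcript (ENSG00000273046) that had no count in any of the 9 libraries. The cluster was chosen by the differences in read counts between compound-treated and DMSO libraries that earlier results of these same libraries had shown, and its members were then taken by name alone. The levels and differences below are therefore a description of these libraries and lend no independent support to a change.

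HEK293T cells descend from human embryonic kidney and express the large T antigen of SV40. All 9 libraries came from cells with the genotype PRPS1-HA-dTAG and PRPSAP1-V5-BromoTag, in which PRPS1, a phosphoribosyl pyrophosphate synthetase, and PRPSAP1, a protein associated with that enzyme, each carry a degron. The 3 groups were DMSO, dTAG47 and AGB1, with 3 libraries each. dTAG47 brings the dTAG to CRBN, and AGB1 brings the BromoTag to VHL, both of which are substrate receptors of ubiquitin ligases. Each compound was given at 500 nM for 24 h. Since all 9 libraries share the genotype, the DMSO cells carry both degrons as well. Untagged cells, and untagged cells given either compound, were not analysed here, so loss of the tagged protein and other actions of its compound cannot be told apart. The labels do not say whether the cells are 1 clone or whether the libraries came from separate cultures, so the spread behind each p-value is that of these libraries and may be technical. Loss of either protein cannot be read from RNA counts.

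HOX genes code for transcription factors that bind DNA through a homeodomain and give cells their position along the body axis. Mammals hold them in 4 clusters, HOXA to HOXD, in which the genes near the 3′ end are used in anterior tissue and those near the 5′ end in posterior tissue. Polycomb proteins keep silent HOX genes closed, trithorax proteins keep active ones open, retinoic acid induces them, and TALE proteins such as PBX and MEIS bind DNA together with HOX proteins. Cultured cell lines usually keep part of the HOX pattern of the tissue they came from.

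The 9 genes lie on the plus strand of chromosome 12 (GRCh38, GENCODE release 29). HOXC13 (chr12:53938765-53946544) comes first, followed by HOXC12 (chr12:53954834-53958956), HOXC11 (chr12:53973126-53977643) and HOXC10 (chr12:53985065-53990279). The span of HOXC6 (chr12:53990624-54030823) then takes in HOXC9 (chr12:53994895-54003337) and HOXC8 (chr12:54009106-54012362), because some HOXC6 transcripts start far upstream. HOXC4 (chr12:54016931-54056030) overlaps the end of HOXC6 and takes in HOXC5 (chr12:54032853-54035358). The members share the homeobox, and the 30 bases below, in the part that codes for the DNA-recognition helix, are shown so that the likeness between members can be seen. They were read from the GENCODE transcripts and are in chromosome order, and capitals mark the 16 positions that are the same in all 9 genes. The stretch was located with a search pattern that fixed most of these positions, so the likeness is partly set by the search.
HOXC13: TGGTTcCAgAAccGgcGggTcAAagagAAg
HOXC12: TGGTTtCAgAAccGgaGaaTgAAaaagAAa
HOXC11: TGGTTtCAgAAcaGaaGgaTgAAagaaAAg
HOXC10: TGGTTtCAaAAtcGcaGaaTgAAactcAAg
HOXC6: TGGTTcCAgAAccGccGgaTgAAgtggAAa
HOXC9: TGGTTtCAgAAtcGaaGgaTgAAgatgAAa
HOXC8: TGGTTcCAgAAccGaaGgaTgAAgtggAAa
HOXC4: TGGTTcCAaAAccGtcGcaTgAAatggAAg
HOXC5: TGGTTcCAgAAccGcaGgaTgAAgtggAAg
HOXC5, HOXC6 and HOXC8 were the closest, with 2 differing bases in each pair. HOXC13 and HOXC10 were the farthest from any other member, each with 7 differing bases to its closest relative.

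Even so, no 75-base word of a HOXC transcript was found in a transcript of a gene outside the cluster. Within it, HOXC4 and HOXC6 share 484 exonic bases on the same strand, which is 17.8% of the exonic bases of HOXC4 and 13.7% of those of HOXC6. The protein-coding row of HOXC5 shares 59.9% of its exonic bases with its read-through row. Reads from shared bases may have been split, assigned to 1 gene or dropped, so the counts of HOXC4, HOXC5 and HOXC6 are uncertain to that degree. The read-through row, which shares 99.8% of its exonic bases, had no count. Whether such reads were split, assigned or dropped was not tested. The level of HOXC5 per length below is taken over all its bases and may be too low. Smaller shares on the same strand are those of HOXC9 with HOXC6 (73 bases, 4.35% of HOXC9) and of HOXC10 with AC012531.2, a gene that spans HOXC10 to HOXC5 (166 bases, 7.12% of HOXC10), which had no count in any library. On the opposite strand HOXC9 shares 9.71% of its exonic bases with HOXC-AS2, HOXC13 7.10% with HOXC13-AS and HOXC10 2.70% with HOXC-AS3. The strand setting of the counting is not given in the sources used here, so sense and antisense reads cannot be told apart there. HOXC8, HOXC11 and HOXC12 share no exonic base with another gene.

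The RefSeq promoter table (GRCh38.p14, 250 bases before to 50 after the start) held 2 of the 9 members, HOXC4 and HOXC5, with the identical sequence, chr12:54016638-54016937, plus strand. It is shown because RefSeq gives the 2 genes this 1 window. The window lies at the start of HOXC4 (chr12:54016931), whereas the HOXC5 model with counts starts further downstream, at chr12:54032853. Capitals mark CCAAT read on the minus strand, the letters of the CCAAT box.
HOXC4 and HOXC5: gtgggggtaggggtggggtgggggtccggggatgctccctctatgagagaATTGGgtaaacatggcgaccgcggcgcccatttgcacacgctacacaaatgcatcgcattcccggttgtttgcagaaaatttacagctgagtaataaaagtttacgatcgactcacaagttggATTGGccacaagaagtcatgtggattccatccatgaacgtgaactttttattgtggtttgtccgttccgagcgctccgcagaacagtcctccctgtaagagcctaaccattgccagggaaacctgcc
The 2 matches begin at −200 and −77 from the start, and 34.6% of the 35116 promoters in the table hold CCAAT on either strand. Neither TATAAA, the TATA box, nor TGATTNAT, the letters of a joint PBX and HOX site, was in this window on either strand, and 11.5% and 2.82% of promoters hold them. The motifs were chosen with this sequence in view, and no 2 matches overlap.

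Total counts per library ranged from 27964128 to 44803380, at which 3 counts correspond to 0.0670 to 0.107 CPM (counts scaled to the size of the library). There were 11 markers listed for the line and its epithelial label. The highest were vimentin (VIM, 354 CPM), the neurofilament genes NEFM (193 CPM) and NEFL (101 CPM), CDH2 (72.1 CPM), KRT18 (52.0 CPM) and KRT8 (31.35 CPM). CDH1 was at 7.21 CPM, LHX1 at 3.06, EPCAM at 2.13 and PAX2 at 1.37 CPM, and KRT19 had no more than 3 counts. Of 7 markers of other cell types, COL1A1 was at 27.0 CPM and the other 6 had means from 0.00360 to 0.279 CPM. Compared gene by gene with the mean of the 9 libraries on the log2 scale, DMSO 1, DMSO 2 and dTAG47 2 deviated downwards with rising GC content (Spearman rho −0.38, −0.28 and −0.33 over 11435 genes) and DMSO 3 and dTAG47 1 upwards (0.27 and 0.63). The AGB1 libraries showed little such trend (−0.03 to 0.05). The tested HOXC genes had a median GC content of 52.9%, next to 48.6% for all tested genes, so fits with the GC trend removed are given where they bear on a member.

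Compared per length, as RPKM (CPM divided by the gene length in kb) averaged over the 9 libraries, HOXC9 was the highest at 7.40 and HOXC4 followed at 6.30. HOXC10 was at 5.40, HOXC13 at 5.33, HOXC6 at 3.48, HOXC8 at 3.12 and HOXC11 at 2.11. HOXC12 and HOXC5 were at 0.183 each. The ranges over the 9 libraries, which include differences between groups, overlapped for each pair of neighbours in this order except HOXC11 and HOXC12. Within libraries, HOXC13 was above HOXC6 and HOXC8 above HOXC11 in 9 of 9, HOXC9 above HOXC4 in 8 and HOXC4 above HOXC10 in 7. HOXC10 was above HOXC13 in 3, HOXC6 above HOXC8 in 5 and HOXC12 above HOXC5 in 5, so the order of these 3 pairs varied between libraries. The levels did not follow position: the gene at the 5′ end, HOXC13, and the gene at the 3′ end, HOXC4, were both among the 4 highest, and the 2 lowest genes lay far apart. HOXC5 had 102 counts in the 9 libraries together against 5267 for HOXC4. The HOXC5 model with counts starts downstream of the RefSeq window shown above, and its count is uncertain because of shared bases. These counts therefore do not compare the output of a shared promoter. As a whole the HOXC cluster was the lowest of the 4, with a summed mean of 81.1 CPM next to 413 for HOXA, 266 for HOXB and 134 for HOXD, and its highest member in CPM, HOXC4 at 17.2, was far below HOXB9 at 138 and HOXA5 at 118. These last figures are not per length.

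Summed over the members, the cluster was lower in each compound-treated library than in each DMSO library. The sums were 89.6, 95.5 and 107 CPM in DMSO 1 to 3, 80.4, 69.7 and 73.4 CPM in dTAG47 1 to 3, and 70.7, 73.7 and 70.0 CPM in AGB1 1 to 3. The DMSO mean was 97.5 ± 9.07 CPM, the dTAG47 mean 74.5 ± 5.45 CPM and the AGB1 mean 71.4 ± 1.95 CPM (SD, n = 3), or 76.4% and 73.3% of the DMSO mean. No test is given for this sum. In bulk RNA, fewer cells that express the genes and less RNA per cell cannot be told apart.

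**Figure D1:**
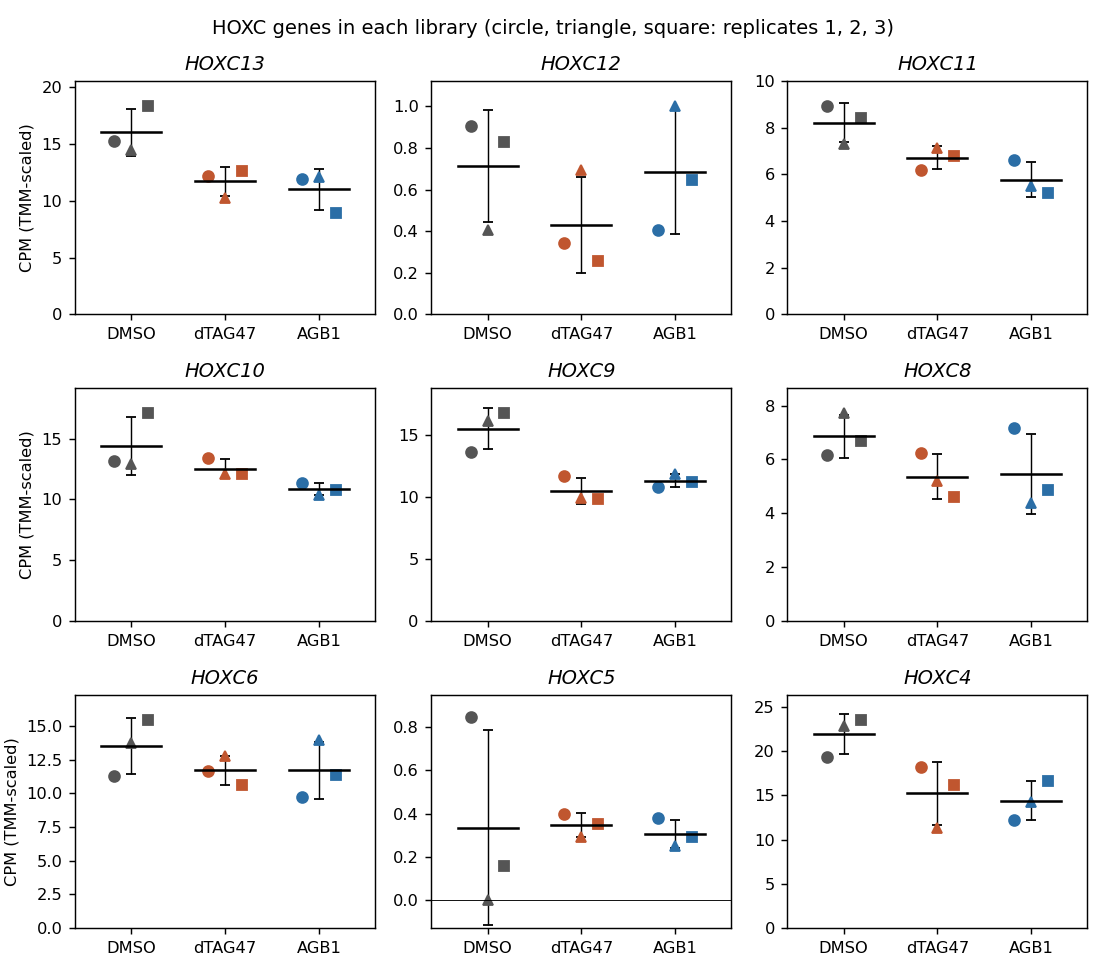
Level of each HOXC gene in each library, in CPM with TMM-scaled library sizes, for DMSO, dTAG47 and AGB1. Symbols are libraries, horizontal lines group means and error bars ± 1 SD (n = 3). For HOXC4, HOXC9, HOXC11 and HOXC13 the 6 compound-treated libraries all lie below the 3 DMSO libraries, while the groups of HOXC6, HOXC8, HOXC12 and HOXC5 overlap.

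The differences between groups come from 1 model over all 9 libraries (edgeR's quasi-likelihood test), with p-values adjusted over the 18319 genes tested. The 9 protein-coding rows of the cluster passed the filter on low counts. The comparisons of dTAG47 and of AGB1 with DMSO share the DMSO libraries, so a low or high DMSO library moves both the same way.

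HOXC4, at the 3′ end and used in anterior tissue, was at 19.3, 22.8 and 23.6 CPM in DMSO, at 18.3, 11.3 and 16.2 CPM with dTAG47, and at 12.2, 14.3 and 16.6 CPM with AGB1. Each compound-treated library was below each DMSO library, and dTAG47 1 came closest to them. The log2 fold change was −0.53 with dTAG47 (SE 0.14, edgeR adjusted p = 0.254) and −0.61 with AGB1 (SE 0.15, edgeR adjusted p = 0.110), which is 0.693 and 0.655 of the DMSO level. Neither passed the threshold of 0.05, but the AGB1 value was close enough for the choice of fit to decide the call. It passed with DESeq2 (adjusted p = 0.0412), with the GC trend removed (edgeR adjusted p = 0.0465), in an edgeR fit of only the 2 groups compared (0.0459) and without dTAG47 2 (0.0309), and it ranged up to 0.550 when AGB1 1 was left out. Without dTAG47 2, its lowest library, the change with dTAG47 was −0.35. HOXC4 shares exonic bases with HOXC6 and with the read-through row of HOXC5, but not with the HOXC5 row that had counts. The counts of HOXC4, HOXC5 and HOXC6 were also summed and fitted as 1. Such a sum takes in reads split between the genes, but not reads dropped as shared. The sum changed by −0.39 with dTAG47 (SE 0.11, edgeR adjusted p = 0.272) and by −0.44 with AGB1 (SE 0.11, edgeR adjusted p = 0.141) on the log2 scale.

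HOXC5, the neighbour inside HOXC4, was barely detected. It had 28, 0 and 6 counts in the DMSO libraries, 14, 13 and 11 with dTAG47 and 14, 7 and 9 with AGB1. The DMSO libraries spanned the whole range of the others, and the 95% interval of its log2 fold change was −1.72 to 1.81 with dTAG47 and −1.91 to 1.68 with AGB1. These intervals leave room for large differences in either direction, so no difference or lack of one can be read for this gene.

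HOXC6, which is linked to thoracic positions, was at 11.3, 13.8 and 15.5 CPM in DMSO, at 11.7, 12.8 and 10.7 CPM with dTAG47 and at 9.76, 14.0 and 11.4 CPM with AGB1. The groups overlapped, and the log2 fold change was −0.21 with either compound (SE 0.15 in both, edgeR adjusted p = 0.809 with dTAG47 and 0.780 with AGB1). Single libraries moved it widely: with dTAG47 it was −0.10 without DMSO 3 and −0.32 without DMSO 1, and with AGB1 −0.09 without AGB1 1 and −0.36 without AGB1 2. HOXC8, also a thoracic gene, was at 6.17, 7.73 and 6.67 CPM in DMSO, at 6.26, 5.20 and 4.62 CPM with dTAG47 and at 7.16, 4.37 and 4.86 CPM with AGB1. AGB1 1 and dTAG47 1 lay within the range of the DMSO libraries, and the log2 fold changes were −0.35 (SE 0.19, edgeR adjusted p = 0.724) and −0.32 (SE 0.20, edgeR adjusted p = 0.726). With AGB1 the value was −0.57 without AGB1 1 and −0.19 without AGB1 2.

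HOXC9, which helps to set the border between limb-level and thoracic motor neurons in the spinal cord, was at 13.6, 16.1 and 16.8 CPM in DMSO. With dTAG47 it was at 11.7, 9.94 and 9.81 CPM, and with AGB1 at 10.8, 11.9 and 11.2 CPM. No compound-treated library reached the lowest DMSO library. The log2 fold change was −0.57 with dTAG47 (SE 0.13, edgeR adjusted p = 0.130) and −0.46 with AGB1 (SE 0.13, edgeR adjusted p = 0.257). With dTAG47 HOXC9 passed the threshold under DESeq2 (adjusted p = 0.0212) and with the GC trend removed (edgeR adjusted p = 0.0345, log2 fold change −0.60), and its adjusted p reached 0.490 at the highest when a library was left out.

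HOXC10 and HOXC11 belong to the posterior genes used at the level of the hindlimb. HOXC10 was at 13.2, 12.9 and 17.1 CPM in DMSO, at 13.4, 12.1 and 12.1 CPM with dTAG47 and at 11.4, 10.3 and 10.8 CPM with AGB1. The AGB1 libraries were the lowest and did not overlap with DMSO, whereas dTAG47 1 lay above 2 of the DMSO libraries. The log2 fold change of HOXC10 was −0.20 with dTAG47 (SE 0.13, edgeR adjusted p = 0.794) and −0.41 with AGB1 (SE 0.14, edgeR adjusted p = 0.366). DMSO 3 stood above the other DMSO libraries for this gene, and without it the values became −0.06 and −0.26. HOXC11 was at 8.93, 7.29 and 8.43 CPM in DMSO, at 6.20, 7.15 and 6.80 CPM with dTAG47 and at 6.61, 5.51 and 5.21 CPM with AGB1. Each compound-treated library was below the lowest DMSO library, though dTAG47 2 came close to DMSO 2, and the dTAG47 and AGB1 libraries overlapped with each other. The log2 fold change of HOXC11 was −0.29 with dTAG47 (SE 0.16, edgeR adjusted p = 0.740) and −0.51 with AGB1 (SE 0.17, edgeR adjusted p = 0.366).

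HOXC12 and HOXC13 are the most posterior members. HOXC12 had 30, 13 and 31 counts in DMSO, 12, 31 and 8 with dTAG47 and 15, 28 and 20 with AGB1, and its groups overlapped. The intervals of its log2 fold change were wide, −1.97 to 0.55 with dTAG47 and −1.32 to 1.17 with AGB1. HOXC13, which is needed for hair and nail formation, was at 15.3, 14.4 and 18.3 CPM in DMSO, at 12.2, 10.3 and 12.6 CPM with dTAG47 and at 11.95, 12.1 and 8.94 CPM with AGB1. All compound-treated libraries of HOXC13 were below the lowest DMSO library, and AGB1 3 was the lowest of all. Its log2 fold change was −0.46 with dTAG47 (SE 0.14, edgeR adjusted p = 0.360) and −0.54 with AGB1 (SE 0.14, edgeR adjusted p = 0.198).

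**Figure D2:**
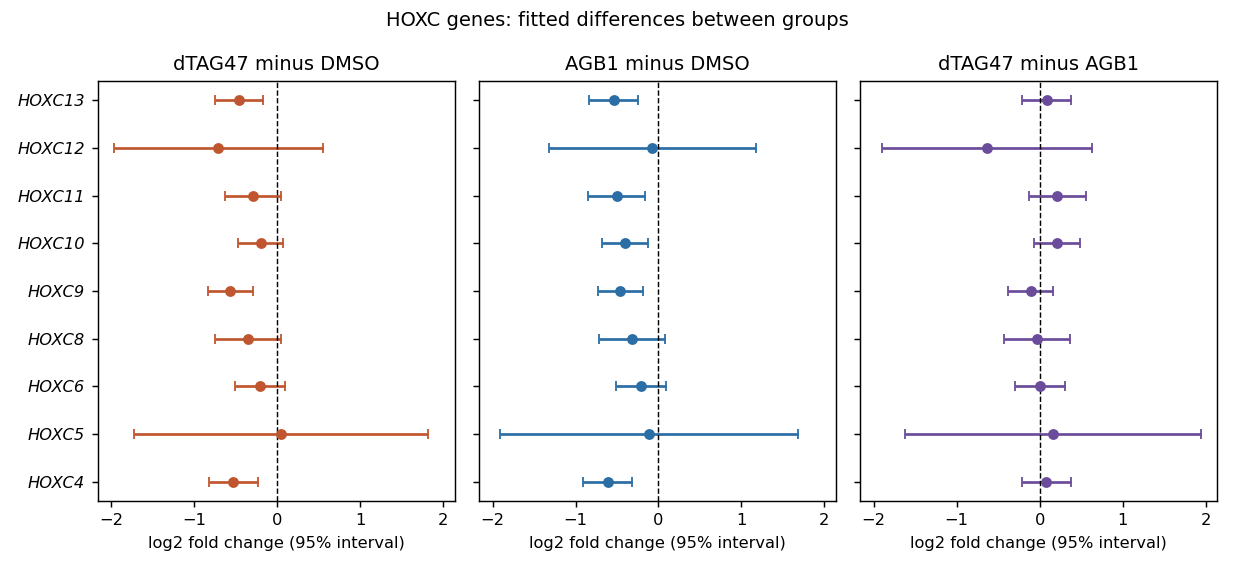
Log2 fold changes of the 9 HOXC genes (points) with 95% intervals (bars) from the edgeR fit, for each compound against DMSO and for dTAG47 against AGB1, in chromosome order from HOXC13. Intervals lie below 0 for HOXC4, HOXC9 and HOXC13 with dTAG47 and for these and HOXC10 and HOXC11 with AGB1, and each interval between the compounds includes 0.

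In all, 0 of the 9 members passed the edgeR threshold with dTAG47, where 0.06% of all tested genes did, and 0 of 9 with AGB1, where 0.104% did. At an unadjusted edgeR p under 0.05 there were 3 members with dTAG47 (HOXC4, HOXC9 and HOXC13; 7.28% of all genes) and 5 with AGB1 (these and HOXC10 and HOXC11; 7.76% of all genes). DESeq2 gave an adjusted p to 7 of the 9 members, not to HOXC5 and HOXC12, and called 1 in each comparison, HOXC9 with dTAG47 (0.336% of the 13993 genes with an adjusted p) and HOXC4 with AGB1 (0.617% of 12150). Of the 9 members limma-voom called 0 in each (0.0546% and 0.0873%). The libraries were lower than DMSO without overlap for 4 members with dTAG47 (HOXC4, HOXC9, HOXC11 and HOXC13; 5.82% of all genes) and for 5 with AGB1 (HOXC10 as well; 6.75%). For 4 members all 6 compound-treated libraries were below the lowest DMSO library, as for 2.2% of all genes. Without DMSO 1 and dTAG47 1, the libraries with the strongest GC trends, the count without overlap with dTAG47 was 7, but with 2 libraries against 2 the share of all genes was 18.6% as well. The log2 fold change was below 0 for 8 of 9 members with dTAG47 and for 9 of 9 with AGB1, next to 50.3% of all genes in both, with medians of −0.35 and −0.41. As the cluster was chosen with these differences known, nothing is read from the counts. DMSO 3, whose genes of high GC content were high, was the highest library of all for HOXC4, HOXC6, HOXC9, HOXC10 and HOXC13. With the GC trend removed, the 7 members other than HOXC5 and HOXC12 ranged from −0.60 (HOXC9) to −0.23 with dTAG47 and from −0.62 (HOXC4) to −0.23 with AGB1.

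**Figure D3:**
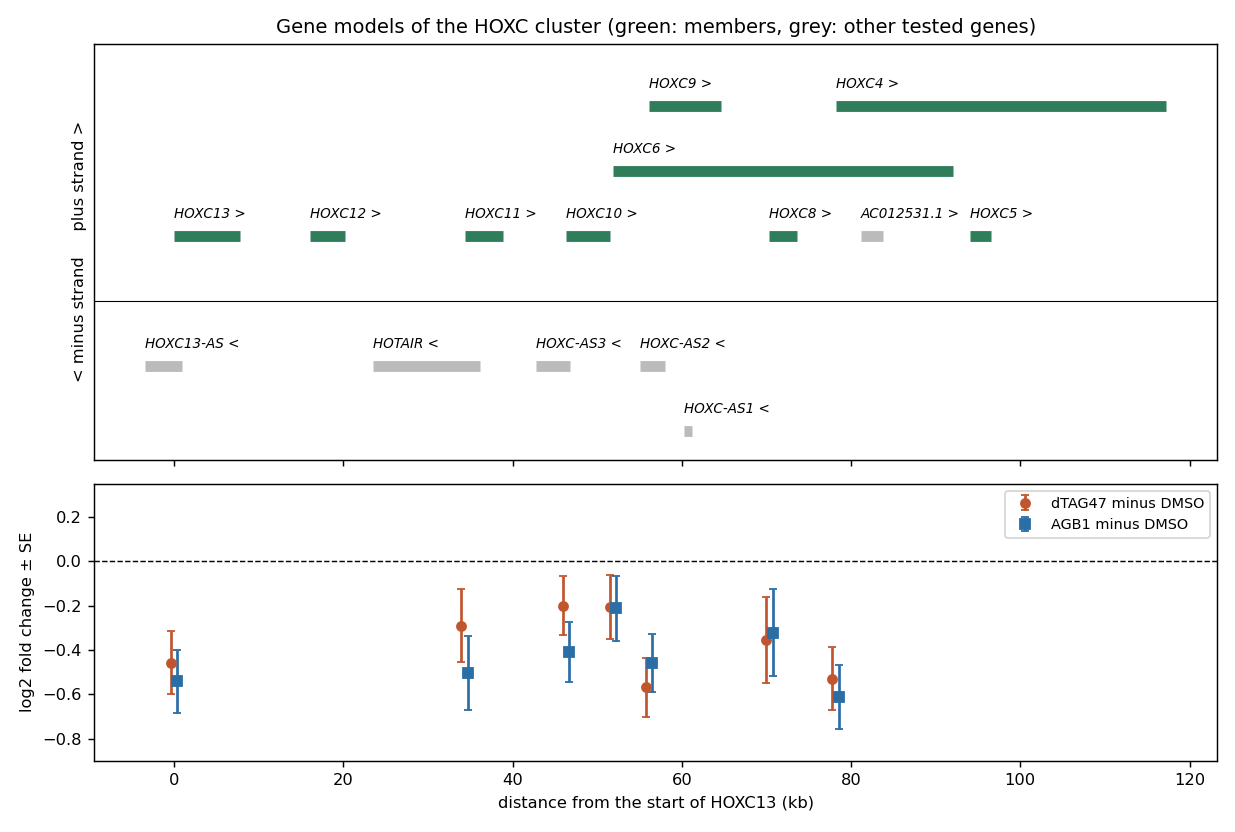
Gene models of the HOXC cluster above (green bars, members; grey bars, other tested genes; plus strand above the line, minus strand below) and log2 fold changes ± SE of the 7 members with more than 1 CPM below, at the start of each gene, against the distance from the start of HOXC13 in kb. The points lie between −0.61 and −0.20 along the whole length.

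Between the compounds, 0 of 9 members passed the edgeR threshold, as did 0.0% of all genes, and 0 members had an unadjusted p under 0.05 (4.02% of all genes). DESeq2 and limma-voom also called 0 members. The edgeR adjusted p of dTAG47 minus AGB1 was 0.999 for each member. The log2 differences of the 7 better detected members ran from −0.11 for HOXC9 (95% interval −0.38 to 0.16) to 0.21 for HOXC11 (−0.13 to 0.56) and HOXC10 (−0.07 to 0.49). HOXC12, at 0.430 ± 0.231 CPM with dTAG47 and 0.685 ± 0.2996 CPM with AGB1 (SD, n = 3), had a difference of −0.64 (95% interval −1.90 to 0.63). These intervals leave room for differences of that size, so the data do not show that the compounds act alike on the cluster.

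Of 13 noncoding genes listed in and beside the cluster, 7 were tested, 6 of them were negative with dTAG47 (median −0.31) and 7 with AGB1 (median −0.41), and none passed the edgeR threshold. The 5 that overlap the stretch from HOXC13 to HOXC4 were negative in both comparisons. The other 2 lie beyond HOXC4. FLJ12825, at a mean of 0.234 CPM and 0 to 16 counts per library, had −1.90 with dTAG47 (SE 0.97, edgeR adjusted p = 0.692) and −0.38 with AGB1 (SE 0.89, edgeR adjusted p = 0.958). LINC02381 had 0.00 with dTAG47 and −0.18 with AGB1. At an unadjusted edgeR p under 0.05 there were 0 with dTAG47 and 2 with AGB1, next to 7.28% and 7.76% of all tested genes. Of all tested genes, 50.3% were negative in each comparison. HOTAIR, a long noncoding RNA on the strand opposite HOXC11, was at 4.42, 4.74 and 7.34 CPM in DMSO, 4.43, 4.98 and 4.01 CPM with dTAG47 and 4.74, 3.65 and 3.98 CPM with AGB1. Its groups overlapped, and DMSO 3 alone stood high. The antisense partners of members were low throughout. HOXC-AS2, opposite HOXC9 and HOXC6, changed by −0.74 with AGB1 (SE 0.33, edgeR adjusted p = 0.589) and HOXC-AS3, opposite HOXC10, by −1.66 (SE 0.67, edgeR adjusted p = 0.520), from 0.776 ± 0.305 CPM in DMSO to 0.240 ± 0.124 (SD, n = 3). With dTAG47 the values were −0.23 for HOXC-AS2 (SE 0.32, edgeR adjusted p = 0.92) and −0.87 for HOXC-AS3 (SE 0.64, edgeR adjusted p = 0.82). HOXC-AS3 had only 3 to 35 counts per library. HOXC13-AS had group means of 0.823 ± 0.422 (DMSO), 0.657 ± 0.379 (dTAG47) and 0.500 ± 0.251 CPM (AGB1), and its groups overlapped. HOXC-AS1, within the span of HOXC9, had 1.56 ± 0.199, 1.11 ± 0.117 and 1.20 ± 0.452 CPM.

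The protein-coding genes that flank the cluster had values on both sides of 0. Of 12 tested, 5 were negative with dTAG47 and 4 with AGB1, next to 50.3% of all genes in each comparison. Their medians were 0.02 and 0.04 on the log2 scale next to 0.00 for all genes, and none passed the edgeR threshold. At an unadjusted edgeR p under 0.05 there were 0 with dTAG47 and 3 with AGB1, next to 7.28% and 7.76% of all genes. These 3 were CALCOCO1 (−0.26, SE 0.10, edgeR adjusted p = 0.434), NFE2 (−3.01, SE 0.84, edgeR adjusted p = 0.235) and ATP5MC2 (0.14, SE 0.06, edgeR adjusted p = 0.545). NFE2 had only 0 to 32 counts per library. With dTAG47 their values were −0.06, −0.74 and 0.07. SMUG1, the DNA glycosylase gene next to HOXC4 on that side, had −0.01 with dTAG47 and 0.01 with AGB1. Where along the chromosome the negative values end was not tested.

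The other HOX clusters also had mostly negative values, with medians nearer to 0. HOXA had 11 of 11 tested genes negative with dTAG47 and 9 of 11 with AGB1, HOXB 9 of 9 and 7 of 9, and HOXD 8 of 8 in both. Of all tested genes, 50.3% were negative in each comparison. Restricted to genes at 1 CPM or more on average, the median log2 fold change with dTAG47 was −0.35 for the 7 HOXC genes, −0.24 for 11 HOXA genes, −0.26 for 9 HOXB genes and −0.17 for 5 HOXD genes. With AGB1 the medians were −0.46, −0.15, −0.32 and −0.30. Of all these HOX genes, HOXB3 (−0.53, SE 0.11, edgeR adjusted p = 0.0419) and HOXB9 (−0.32, SE 0.06, edgeR adjusted p = 0.0162) passed the threshold, both with AGB1. With dTAG47 they had −0.35 (edgeR adjusted p = 0.360) and −0.26 (edgeR adjusted p = 0.128). Both had a smaller fold change than HOXC4 and a smaller SE. The differences between clusters were not tested.

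**Figure D4:**
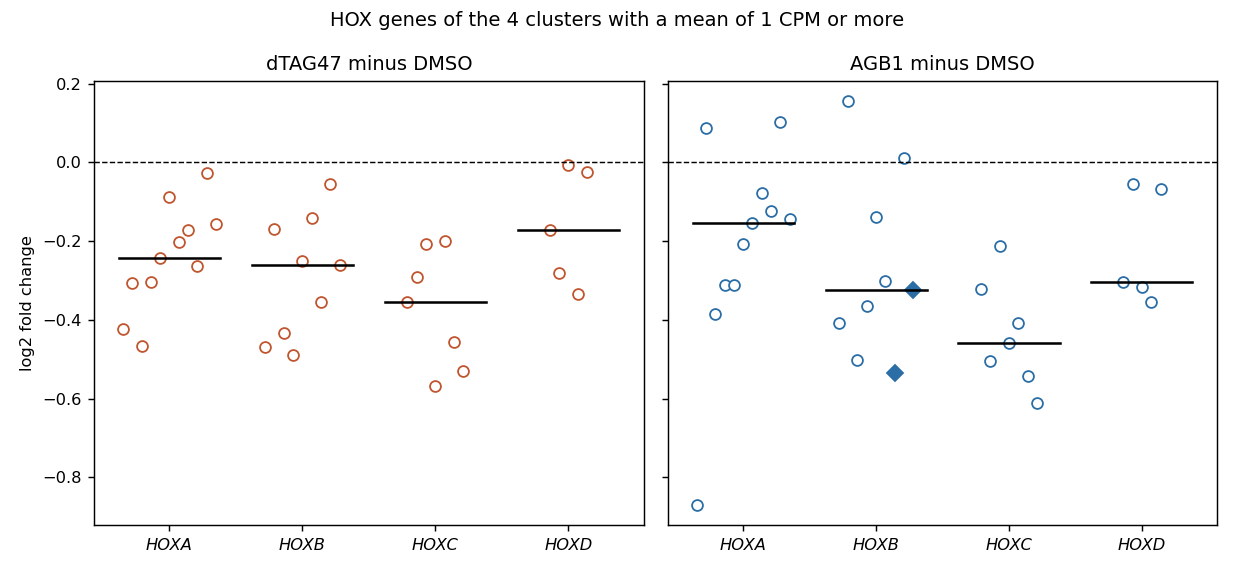
Log2 fold changes of the HOX genes with a mean of at least 1 CPM, by cluster, with dTAG47 (left) and AGB1 (right) against DMSO. Each symbol is a gene, filled diamonds passed the edgeR threshold, and lines are medians; the HOXC medians are −0.35 and −0.46.

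Genes that act with or on HOX genes were listed as well. Of all tested genes, 50.3% were negative in each comparison with DMSO. An unadjusted edgeR p under 0.05 was found for 7.28% with dTAG47 and 7.76% with AGB1. Of the 9 TALE cofactors, 7 were negative with either compound (medians −0.17 and −0.21), and none passed the edgeR threshold, with 5 at an unadjusted p under 0.05 in each comparison. PBX3, a TALE partner of HOX proteins, had a DMSO mean of 29.7 ± 0.238 CPM, a dTAG47 mean of 22.5 ± 2.69 CPM and an AGB1 mean of 22.2 ± 0.556 CPM (SD, n = 3), and was named after its values were seen. Among 30 Polycomb genes 22 and 23 were negative, with medians of −0.03 and −0.06, and among 17 trithorax-group genes and activators 10 and 11 were, with medians of −0.01 and −0.02. None of these passed the edgeR threshold, and 7 and 5 of the Polycomb genes and 1 and 0 of the trithorax group had an unadjusted p under 0.05. In the retinoic acid pathway, 12 of 14 tested genes were negative with dTAG47 and 10 with AGB1. ALDH1A2, which makes retinoic acid, fell with dTAG47 (log2 fold change −0.37, SE 0.07, edgeR adjusted p = 0.0337), and DHRS3, which turns retinaldehyde back to retinol, fell with AGB1 (−0.67, SE 0.11, edgeR adjusted p = 0.00327). With the other compound the values were −0.26 for ALDH1A2 (AGB1, edgeR adjusted p = 0.235) and −0.40 for DHRS3 (dTAG47, edgeR adjusted p = 0.210). Whether either bears on the HOXC genes was not tested.

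The protein-coding genes whose level most resembled the summed HOXC level across the 9 libraries, by Pearson's r of log2(CPM + 1) among 10832 genes at 5 CPM or more, were ARHGAP10 (r = 0.953), HOXD10 (0.944), FOXF2 (0.936), MOV10 (0.934) and FOXO4 (0.924). The group means of HOXD10 were 31.9 (DMSO), 25.3 (dTAG47) and 24.9 CPM (AGB1). The points share the libraries, their depth and their GC trends, and the highest of so many coefficients over 9 points are high by selection.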

How the data were processed

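Poly(A)-selected RNA of 9 HEK293T libraries was sequenced, 3 each for DMSO, dTAG47 and AGB1. The deposited files hold raw counts per Ensembl gene. HISAT2, DESeq2 and build hg38 are named, per the submitters' processing notes. Which program counted the reads, its strand mode and any version is not given in the sources used here. All 58735 gene models match GENCODE release 29 in start, end and strand.

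Counts were scaled by TMM and fitted with edgeR 4.0.16 (filterByExpr, 18319 genes kept, quasi-likelihood, 1 coefficient per group) in R 4.3.3. The threshold was an adjusted p of 0.05 (Benjamini-Hochberg over all tested genes). The common biological coefficient of variation was 11.0%. CPM used TMM-scaled library sizes, and RPKM divided them by the gene length in the files. Limits from 3 counts cover counting error only. Sequence sharing was measured on 75-base words of GENCODE transcripts. The fit was tested on simulated data.

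Alternatives were DESeq2 1.42.0, limma-voom (limma 3.58.1), other scalings and filters, only the 2 groups compared, a GC trend removed by lowess (span 0.3), the replicate number as a block, and leaving out each library. The summed counts of HOXC4, HOXC5 and HOXC6, fits without DMSO 1 and dTAG47 1, and the recount of members without overlap were added after seeing the data. No replicate pair of a group agreed within sampling noise (chi-square per degree of freedom 5.98 to 15.9). The members, lists and rule for named genes were chosen with earlier results of these data known. By that rule the text names the 9 members, the tested noncoding genes of the cluster that overlap a member, up to 3 called genes per other list, and the 5 genes most like the summed HOXC level. SMUG1, CALCOCO1, NFE2, ATP5MC2, LINC02381, FLJ12825, PBX3 and the cell type markers were named beside it as examples, and all but the markers after their values were seen.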

Additional observations from a re-analysis of the deposited data

How the results depend on the processing

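For the 7 members other than HOXC5 and HOXC12, the log2 fold change against DMSO kept its sign in each alternative run: of 141 values per comparison, 0 reversed, and 3 with dTAG47 and 7 with AGB1 newly passed the threshold, each for HOXC9 or HOXC4. The number of members called was 1 in place of 0 with dTAG47 under DESeq2 (of 47 genes called in all, 0.336%), without a count filter (HOXC4, edgeR adjusted p = 0.0237, of 43) and with the GC trend removed (of 22). With AGB1 it was 1, always HOXC4, under DESeq2 (of 75 genes called in all, 0.617%), without a count filter (edgeR adjusted p = 0.0012, of 67) and in the 2-group fit (of 22). It was also 1 with the GC trend removed (of 47), with that and the replicate block (edgeR adjusted p = 0.0405, of 48), and without DMSO 1 and dTAG47 1 (edgeR adjusted p = 0.0358, of 29). Leaving out 1 library gave 0 to 1 with AGB1 and 0 with dTAG47. The main fit called 11 and 19 genes (0.06% and 0.104% of those tested), and each run that added a member also called more genes in all. The cause of these differences was not tested.

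Genes called over the whole table were 11, 19 and 0 for dTAG47 and AGB1 against DMSO and between the compounds. They became 47 and 75 with DESeq2, 43, 67 and 13 without a count filter, 4 with dTAG47 in the 2-group fit, 22 and 47 with the GC trend removed, 48 with AGB1 when the block was added to that, and 6, 29 and 2 without DMSO 1 and dTAG47 1. Leaving out 1 library gave 2 (without dTAG47 1) to 20 (without DMSO 3), 6 (without AGB1 3) to 55 (without DMSO 3), and 0 to 2 (without AGB1 1). Members without overlap numbered 4 to 6 with dTAG47 and 5 to 6 with AGB1 when 1 library was left out, where 9.59% to 13.1% and 10.9% to 13.9% of all genes did not overlap, and 7 with dTAG47 without DMSO 1 and dTAG47 1 (18.6%). In that last setting HOXC6, HOXC8, HOXC10 and HOXC11 were at −0.32, −0.55, −0.31 and −0.17 with dTAG47.

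Signs turned for HOXC5 and HOXC12 against DMSO, which had 102 and 188 counts in all. HOXC5 was at −0.019 with dTAG47 once the GC trend was removed, and with AGB1 at 1.25 under limma-voom, 0.37 with the replicate block, 0.33 with block and GC removal and 1.84 without DMSO 1 and dTAG47 1. Leaving out 1 library moved it between −0.53 and 2.01 with dTAG47 and between −0.69 and 1.85 with AGB1. HOXC12 with AGB1 ran from −0.45 to 0.20 with 1 library left out and was 0.13 without DMSO 1 and dTAG47 1. Between the compounds, leaving out 1 library moved HOXC4 between −0.069 and 0.26, HOXC6 between −0.11 and 0.15, HOXC8 between −0.17 and 0.21 and HOXC13 between −0.045 and 0.17, and HOXC4 was at −0.069 without DMSO 1 and dTAG47 1. Neither HOXC5 nor HOXC12 passed the filter of 1 CPM in 3 libraries, so that setting gives them no value.

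Deviations of same-numbered libraries from their group means correlated at −0.17 to 0.07. The labels give only a replicate number, and low correlations cannot show that the libraries were unpaired. With the replicate block, 10 genes were called with dTAG47 and 17 with AGB1, and HOXC4 was at −0.53 and −0.62 (edgeR adjusted p = 0.262 and 0.119).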

Other observations

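One more gene within the cluster lies outside the lists and was named after its values were seen. AC012531.1 (ENSG00000260597), a long intergenic noncoding RNA on the plus strand at chr12:54019910-54022589, lies inside the spans of HOXC4 and HOXC6 and shares no exonic base with them. It was at 3.27, 5.45 and 2.38 CPM in DMSO, at 1.93, 1.47 and 2.66 CPM with dTAG47 and at 2.52, 2.004 and 2.30 CPM with AGB1. DMSO 2 stood highest, and the dTAG47 libraries and the AGB1 libraries both overlapped with DMSO. Its log2 fold change was −0.88 with dTAG47 (SE 0.30, edgeR adjusted p = 0.454) and −0.70 with AGB1 (SE 0.30, edgeR adjusted p = 0.552). With it, 6 of the 13 other genes that overlap the stretch from HOXC13 to HOXC4 were tested, and all 6 had negative log2 fold changes in both comparisons. Of all tested genes, 50.3% were negative in each comparison. The microRNA genes MIR196A2 and MIR615 had 1 count each in the 9 libraries together, in libraries made from poly(A) RNA.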
